A study of Homo sapiens with 4 samples.

Results

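TEAD4 binding was described over a 1.8 Mb stretch of chromosome 1 (hg19, 151.9 to 153.7 Mb, inside band 1q21.3) that carries the epidermal differentiation complex and most of the S100A genes. The members were all TEAD4 peaks whose midpoint lay in this stretch. They numbered 65 of the 39477 MKN28 peaks and 20 of the 11540 SNU216 peaks, or 85 of 51017 in both lists. The choice used position only, not peak strength. Peaks from 153.3 Mb onward formed the S100A part (0.4 Mb, with 25 MKN28 and 9 SNU216 peaks), and the remaining 1.4 Mb (40 and 11 peaks) is called the rest.

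The study applied chromatin immunoprecipitation and sequencing with a TEAD4 antibody to the human gastric cancer cell lines MKN28 and SNU216, for which the labels state no treatment or genetic change. Each line had 1 TEAD4 library and 1 antibody-free input library, and the authors' peak caller compared the first with the second. Differences between the lines could not be set against a spread between replicates, and the intervals below cover counting error only. The lists hold no read counts, so depth is unknown, and no expression values, so the labelled cell type was not checked against markers.

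TEAD4 is a DNA-binding protein of the TEAD family that recruits the co-activators YAP and TAZ, the end points of the Hippo pathway. The epidermal differentiation complex is a run of neighbouring genes for proteins of the cornified envelope, the tough outer shell of skin cells, and it is best known from stratified epithelia rather than from stomach. The S100A genes beside it encode small calcium-binding proteins, several of which are made by many epithelia and carcinomas. The chromosomal order of these genes in RefSeq (GRCh38.p14) starts with S100A10, the partner of annexin A2, and S100A11. It goes on with the fused S100 genes such as TCHH (trichohyalin) and FLG (filaggrin), which bundle keratin. The late cornified envelope genes (LCE), the envelope protein gene IVL (involucrin), the small proline-rich genes (SPRR) and LORICRIN follow. Then come S100A9, S100A12, S100A8, the S100A7 genes, and the row from S100A6 to S100A1. Last of the listed genes are CHTOP, SNAPIN, ILF2, NPR1 and INTS3, which are not S100A genes. A peak of the S100A part therefore need not lie at an S100A gene. No hg19 gene map was used apart from the position of S100A9, so peaks other than those at S100A9 were not assigned to genes.

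The DNA word read by TEAD proteins, GGAATG, was looked up on both strands in the 250 bases before the start of each listed gene, to show which promoters of the complex carry it. RefSeq sequences (GRCh38.p14) were found for 61 of 66 listed genes, and 13 of the 61 (21.3%) held the word, against 11.9% of all 35116 RefSeq promoters. The word was in 5 of 17 late cornified envelope promoters, 5 of 14 promoters of the envelope and small proline-rich list, and 2 of 7 fused S100 promoters. It was in 1 of 14 promoters of the S100A list (S100A16) and in neither of those of S100A10 and S100A11, nor in any of 7 promoters of other genes of the span, such as INTS3. Listed without a promoter were S100A7L2, LCE1B, CRCT1, SPRR2D and SPRR2E. The late cornified envelope promoters with the word were those of LCE2A, LCE2B, LCE2C, LCE2D and LCE3A. In the envelope and small proline-rich list they were those of KPRP, SPRR1A, SPRR1B, SPRR3 and SPRR4. Some of these promoters resemble each other and are not independent, so the 13 do not count as 13 separate cases. The FLG and TCHH stretches below shared 49 of 60 bases, those of LCE2B and LCE2D 58 of 60, and those of SPRR1A and SPRR1B 36 of 60. The stretch of LCE2A, not printed, shared 55 of 60 bases with that of LCE2D. The stretches of each pair were lined up on the word, so its 6 bases matched by construction. A match is a description of the letters and not a binding site, and none of these stretches was tied to a peak. Each stretch is 60 bases taken from the 250 before the start, on the gene's own strand, with GGAATG in capitals.
FLG: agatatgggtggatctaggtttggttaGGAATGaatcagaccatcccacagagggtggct
TCHH: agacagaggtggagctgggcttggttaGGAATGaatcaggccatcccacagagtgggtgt
LCE2B: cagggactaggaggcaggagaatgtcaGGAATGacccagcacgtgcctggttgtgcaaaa
LCE2D: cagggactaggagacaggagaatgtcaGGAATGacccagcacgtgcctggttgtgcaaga
SPRR1A: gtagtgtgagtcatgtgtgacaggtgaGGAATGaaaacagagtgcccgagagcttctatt
SPRR1B: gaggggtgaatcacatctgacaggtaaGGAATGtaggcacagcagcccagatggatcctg
S100A16: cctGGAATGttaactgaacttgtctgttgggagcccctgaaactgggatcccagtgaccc

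The first 200 kb and the S100A part held more TEAD4 peaks per Mb than the middle 1.2 Mb in both lines. In SNU216 the first 200 kb held only 4 peaks. Its interval (5.449 to 51.21 peaks per Mb) overlapped that of the middle (2.345 to 12.02), so an excess at that end was not shown there. Over the whole 1.8 Mb, MKN28 had 36.1 peaks per Mb (exact Poisson 95% interval 27.9 to 46.0) and SNU216 had 11.1 (6.79 to 17.2). The levels over chromosomes 1 to 22 and X were 12.99 and 3.79 peaks per Mb. The region thus held peaks at 2.78 times the genome level in MKN28 (2.15 to 3.54) and at 2.93 times in SNU216 (1.79 to 4.52). When the genome was cut into 1678 tiles of the same length, 52 tiles (3.1%) held at least 65 MKN28 peaks and 81 tiles (4.83%) held at least 20 SNU216 peaks. The surroundings were dense as well. The 1.8 Mb before the region held 45 MKN28 and 14 SNU216 peaks, and the 1.8 Mb after it held 44 and 13. The ratio of the region to these flanks was 1.44 (0.973 to 2.16) and 1.48 (0.992 to 2.22) in MKN28, and 1.43 (0.686 to 3.06) and 1.54 (0.728 to 3.37) in SNU216. All 4 intervals included 1, so an excess over the flanks was not shown at this number of peaks. SNU216 peaks made up 23.5% of the members of both lists (exact binomial interval 15.0 to 34.0), against 22.6% of all peaks on these chromosomes.

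**Figure D1:**
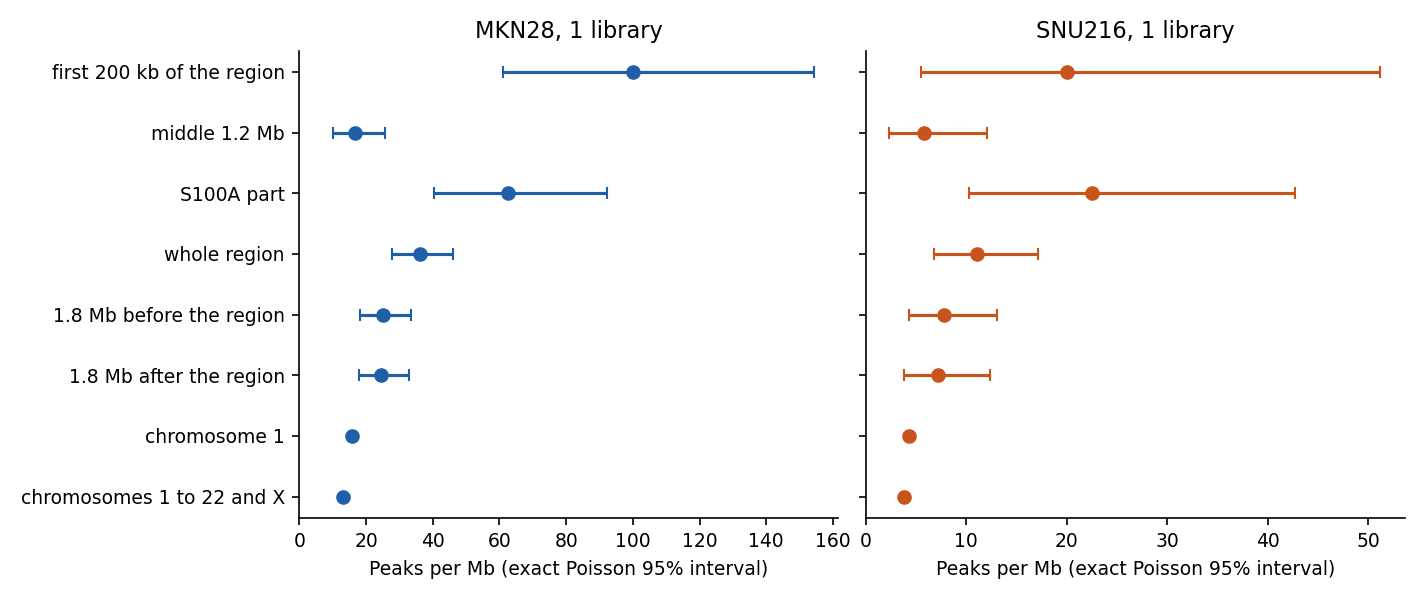
Peaks per Mb (x axis) in parts of the region, in its flanks, on chromosome 1 and over chromosomes 1 to 22 and X, for MKN28 (left) and SNU216 (right). Points are 1 library each and bars are exact Poisson 95% intervals. In both lines the first 200 kb and the S100A part lie to the right of the genome level, while the intervals of the middle 1.2 Mb include it.

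The S100A part held peaks more densely than the rest in both lists. In MKN28 it had 62.5 peaks per Mb (40.5 to 92.3) against 28.6 (20.4 to 38.9) in the rest, a ratio of 2.19 (exact conditional interval 1.27 to 3.69). In SNU216 it had 22.5 (10.3 to 42.7) against 7.86 (3.92 to 14.1), a ratio of 2.86 (1.05 to 7.60). The intervals take each peak as an independent event, although peaks often lie in clusters. The SNU216 interval is wide because it rests on 9 and 11 peaks, and it included 1 when only scores of at least 100 were taken (0.556 to 13.01) or when the outer edges were moved in by 100 kb (0.846 to 9.09).

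The rest was itself uneven. Its first 200 kb, the end at which RefSeq places S100A10 and S100A11, held 20 of its 40 MKN28 peaks and 4 of its 11 SNU216 peaks. Against the genome level these were ratios of 7.70 (4.70 to 11.9) and 5.27 (1.44 to 13.5). The middle 1.2 Mb held 20 MKN28 and 7 SNU216 peaks, which were ratios of 1.28 (0.784 to 1.98) and 1.54 (0.618 to 3.17). Both of those intervals included 1, so the middle was not distinguishable from the genome level. With the first 200 kb left out of the rest, the S100A part was denser by 3.75 times in MKN28 (2.0 to 7.12) and by 3.86 times in SNU216 (1.28 to 12.2).

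In bins of 100 kb, the fullest MKN28 bin was the first of the region with 13 peaks, followed by 153.5 to 153.6 Mb in the S100A part with 10. The 4 bins of the S100A part held 5, 5, 10 and 5 MKN28 peaks. SNU216 had 0, 1, 5 and 3 there, so its peaks lay toward the far end of this part. In the rest, MKN28 had no peak in 3 of 14 bins and SNU216 in 9 of 14.

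**Figure D2:**
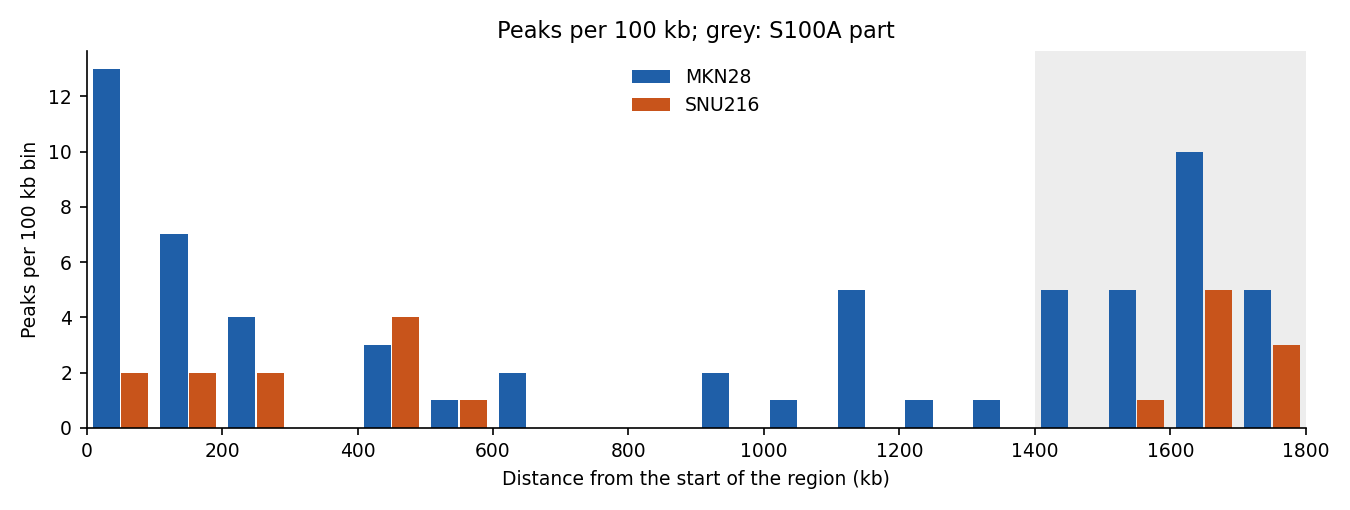
Number of peaks (y axis) in each 100 kb bin, by distance from the start of the region (x axis, kb). Paired bars belong to the same bin, and grey marks the S100A part. MKN28 peaks at 13 in the first bin and 10 in the bin from 1600 to 1700 kb, and SNU216 bars are missing from 600 to 1500 kb.

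A long stretch of the complex carried no peak in either list. It ran from 152512812 to 152878628 (366 kb), while the median empty stretch between peaks of the merged lists was 24.1 kb. This was the longest of 74 empty stretches in the region, and 1236 of 44116 over the genome (2.8%) were at least as long. In SNU216 alone the gap was longer, from 152409399 to 153437863 (1.03 Mb). The SNU216 median was 79.9 kb, and 593 of its 11516 stretches (5.15%) were at least as long as this gap. It was the longest of 20 SNU216 stretches in the region. Each gap was picked for its length, so these shares do not show that it was unusual. MKN28 had 18 peaks within that SNU216 gap, 13 in the rest and 5 in the S100A part, with scores from 51.3 to 532 and a median of 135.3. A place without a peak was below the authors' threshold and may still hold weaker TEAD4 signal.

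**Figure D3:**
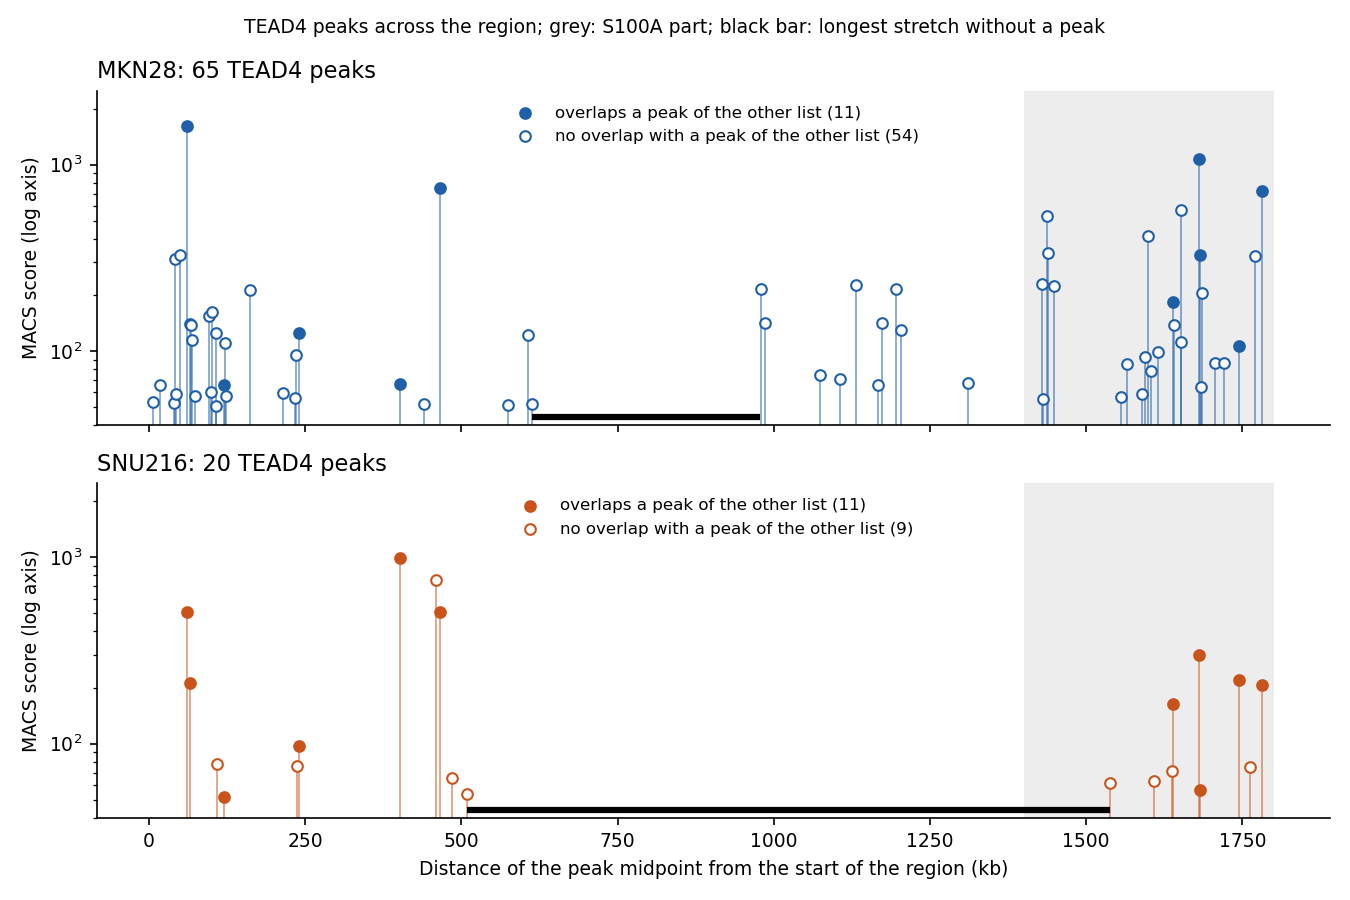
MACS score (y axis, log scale) of every member by the distance of its midpoint from the start of the region (x axis, kb), for MKN28 (top) and SNU216 (bottom). Filled points overlap a peak of the other list (11 in each line), open points do not (54 and 9), grey marks the S100A part and the black bar is the longest stretch without a peak. Strong peaks stand at both ends and from 401 to 466 kb, and SNU216 has none between 509 and 1538 kb.

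By overlap of at least 1 bp, sites common to both lines were about as frequent here as elsewhere in each list. Of the 20 SNU216 members, 11 overlapped an MKN28 peak by at least 1 bp (55.0%, 31.5 to 76.9), against 59.3% of all SNU216 peaks. Of the 65 MKN28 members, 11 overlapped an SNU216 peak (16.9%, 8.76 to 28.3), against 17.1% of all MKN28 peaks. In MKN28, 5 of 25 peaks in the S100A part (20%, 6.83 to 40.7) and 6 of 40 in the rest (15.0%, 5.71 to 29.8) overlapped. In SNU216 the counts were 5 of 9 (55.6%, 21.2 to 86.3) and 6 of 11 (54.5%, 23.4 to 83.3). These intervals are broad, so a moderate difference between the parts was not detectable. In the 1.8 Mb before the region, all 14 SNU216 peaks overlapped an MKN28 peak (76.8 to 100%). That interval and the one of the region shared values only near 77%, and the difference was not tested. Of the 9 SNU216 members without overlap, 3 lay within 5 kb of an MKN28 peak, against 23.3% of all SNU216 peaks without overlap. Of the 54 MKN28 members without overlap, 11 lay within 5 kb of an SNU216 peak, against 8.45% of all MKN28 peaks without overlap. The SNU216 list is itself denser here than over the genome, and its part in this share was not tested.

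Peak strength was close to the list average. The score is the authors' MACS value per peak, and because it depends on depth it was ranked within its own list. In MKN28, 35 of 65 members scored 100 or more (53.8%, 41.0 to 66.3), against 49.9% of the list. In SNU216, 9 of 20 members did (45%, 23.1 to 68.5), against 42.2% of the list. The median score was 112.2 in MKN28 (quartiles 65.5 and 215) and 87.6 in SNU216 (64.8 and 239). Peak widths were also ordinary, with medians of 550.0 bp in MKN28 and 401.5 bp in SNU216, against 525.0 and 408.0 bp over the same chromosomes. Relative to peaks of nearly the same score in their own list, the members had median widths of 0.993 in MKN28 and 1.02 in SNU216.

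In MKN28 the S100A part had a median score of 138 (binomial interval of the median 86.5 to 322) and the rest 102.5 (65.7 to 138.3). In SNU216 the order was the other way, with 75.4 (61.4 to 219) in the S100A part and 97.3 (53.7 to 758) in the rest. The difference between the parts was not tested. Among the 11540 highest-scoring MKN28 peaks, as many as SNU216 has in all and 29.2% of the MKN28 list, were 12 of 25 peaks of the S100A part (48%, 27.8 to 68.7) and 8 of 40 of the rest (20%, 9.05 to 35.6).

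The strongest member of all lay at the S100A10 and S100A11 end of the region and was found in both lines. The MKN28 peak at 151960764 to 151961557 scored 1604, rank 218 of its list and above 99.4% of it. Its SNU216 counterpart at 151960808 to 151961488 scored 511, above 96.1% of that list. The site was therefore near the top of both lists. About 4 kb further on, a second common site scored 139 in MKN28 (151964944 to 151965552) and 210.4 in SNU216 (151964878 to 151965440). The next, at 152020679 to 152021287 in MKN28, scored 65.7, and its SNU216 partner at 152020464 to 152020795 scored 51.5, above 3.01% of the list. The midpoints of this pair lay 353.5 bp apart. The fourth SNU216 peak of this end, at 152008604 to 152008969, scored 77.9 and lay 629 bp from the nearest MKN28 peak without touching it.

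Other MKN28 peaks of this end, among the 10 highest-scoring of the rest, had no SNU216 counterpart. They were at 151949890 to 151951080 (score 329, the widest member at 1191 bp), 151941363 to 151941912 (score 311) and 152061670 to 152062226 (score 213). Further MKN28 peaks without a counterpart were at 152001353 to 152002135 (score 161) and 151996236 to 151997198 (score 153).

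A group of 3 strong SNU216 peaks lay between 152.30 and 152.37 Mb, where MKN28 had a different order of strengths. The SNU216 peak at 152301092 to 152302140 scored 986, rank 91 of 11540 and above 99.2% of the list. It was 1049 bp wide, 1.62 times the median of SNU216 peaks of nearly the same score. The MKN28 peak inside the same place, 152301130 to 152301686, scored 66.2 and exceeded only 26.3% of its own list. The SNU216 score was 14.9 times the MKN28 score, and only 2 of the 6841 overlapping SNU216 peaks in the genome had a higher ratio. Compared by rank within each list, the SNU216 peak stood 72.9 percentage points above its partner, and 38 pairs had a larger difference. The median ratio over all these pairs was 0.565, and 24.7% of them were above 1.

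The second peak of the group, at 152359296 to 152360087, scored 758 in SNU216 and had no MKN28 peak. It was number 5 by score among the 4699 SNU216 peaks without overlap, and the nearest MKN28 peak began 5176 bp away. That neighbour was the third site of the group, and it was strong in both lines. It scored 508 in SNU216 (152365121 to 152365967, above 96.0% of the list) and 753 in MKN28 (152365264 to 152365846, above 96.3%). The contrast between the lines at the first 2 sites was therefore not shared by the last one. These are single libraries, so how much such a ratio varies between cultures was not measured.

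**Figure D4:**
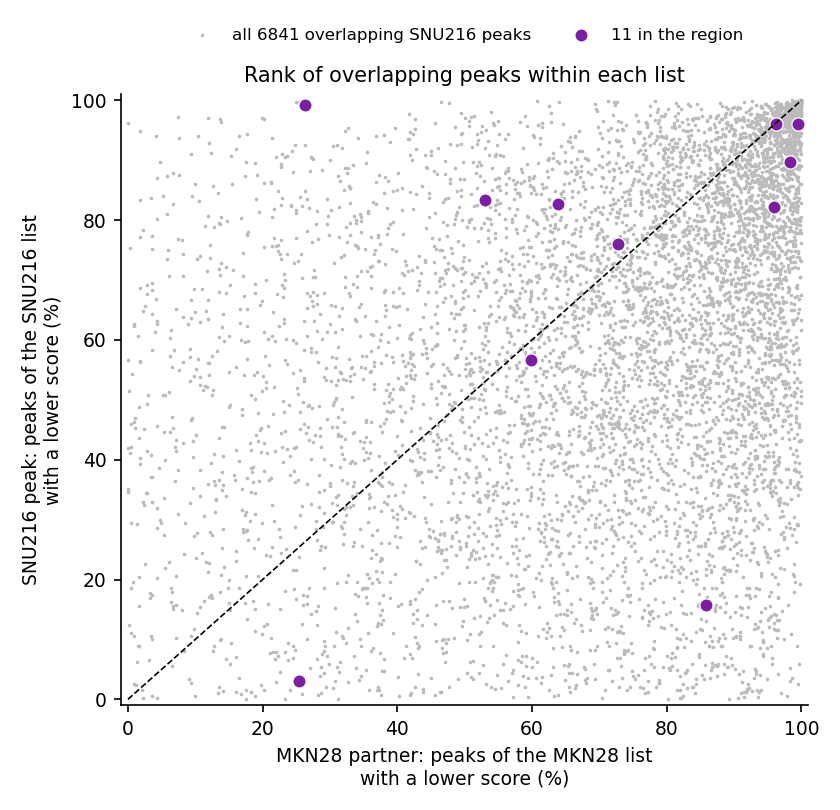
Rank of each overlapping SNU216 peak within its list (y axis, percent of SNU216 peaks with a lower score) against the rank of its MKN28 partner (x axis, percent of MKN28 peaks with a lower score). Grey points are all 6841 overlapping SNU216 peaks, violet points are the 11 in the region and the dashed line marks equal ranks. The violet point at the upper left is the site that scored 986 in SNU216 and 66.2 in MKN28.

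The remaining SNU216 peaks of the rest all scored below 100. The peak at 152140384 to 152140786 scored 97.3 and had an MKN28 partner at 152140290 to 152140884 with a score of 125. Peaks at 152137264 to 152137723 (score 76.2), 152385317 to 152385716 (65.4) and 152409151 to 152409398 (53.7) had none. From there to the S100A part only MKN28 had peaks. Its strongest ones in that span were at 153031159 to 153032264 (score 225, width 1106 bp), 153095337 to 153095710 (score 215) and 152878629 to 152879198 (score 215). They exceeded from 76.9% to 78.1% of the MKN28 list.

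S100A9, which encodes a subunit of the inflammatory calcium-binding protein calprotectin, was the one gene whose hg19 position was used. It occupies 153330330 to 153333503 on the plus strand of chromosome 1 and has 3 exons, with the coding sequence in exons 2 and 3 (UCSC knownGene, transcript uc001fbq.3). MKN28 had 5 peaks near it, the last with its midpoint 17.8 kb past the gene start. A peak of 405 bp at 153330028 to 153330432 covered the transcription start, reaching over non-coding exon 1 into the first intron, and scored 55.0, above 10.1% of the list. A stronger peak with a score of 230 ended 369 bp before the start (153329382 to 153329961), and the peaks were separated by 66 bases. The strongest of the group lay beyond the gene, at 153336184 to 153337239, with a score of 532, a width of 1056 bp and a beginning 2.68 kb after the last exon. It was followed by peaks with scores of 334 (153337936 to 153338587) and 224 (153347728 to 153348498), which began 4.43 kb and 14.2 kb after the gene. RefSeq places S100A12 next, and its hg19 position was not used. The peaks beyond the gene were therefore not assigned to S100A9. The peak on the start was thus the weakest of the 5. SNU216 had no peak nearby, and the midpoint of its closest one lay 108 kb from the start.

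The 250 bases before the S100A9 start are printed because a peak covered that start. They come from RefSeq (GRCh38.p14, plus strand), and no position was carried between builds. GGAATG was not found in them on either strand, which says only that these letters are not in this window. The MKN28 peak on the start extended 302 bases before it.
S100A9: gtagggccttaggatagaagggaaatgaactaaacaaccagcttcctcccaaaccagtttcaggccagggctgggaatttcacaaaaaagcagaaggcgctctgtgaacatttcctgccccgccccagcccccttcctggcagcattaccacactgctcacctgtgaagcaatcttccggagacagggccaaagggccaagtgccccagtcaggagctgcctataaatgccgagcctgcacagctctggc

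**Figure D5:**
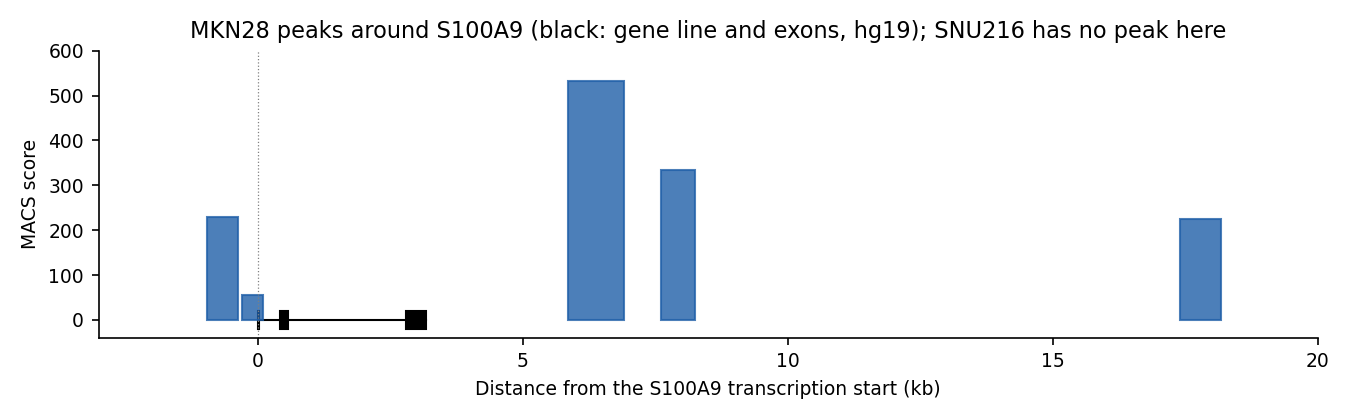
MKN28 peaks (blue bars, x axis: distance from the S100A9 transcription start in kb; height: MACS score, with the y axis drawn slightly below 0 to show the gene) with the gene as a black line and its exons as black boxes. The peak on the start scores 55.0, the lowest of the 5, and the highest bar, at 532, stands beyond the gene. SNU216 has no peak in this window.

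Beyond S100A9, the S100A part held the second strongest MKN28 member and all 5 common sites of this part. The MKN28 peak at 153580399 to 153581218 scored 1071, above 98.3% of its list, and its SNU216 partner at 153580657 to 153581070 scored 300.4, above 89.8%. A second MKN28 peak began 32 bases after it, at 153581251 to 153581942, with a score of 327. The SNU216 peak there, at 153581467 to 153581897, scored 56.4, above 15.7% of the list against 85.9% for the MKN28 peak. Neighbouring peaks of this pair thus kept the same order of strength in both lines, with the stronger one first.

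The common site nearest the end of the region scored 723 in MKN28 (153680411 to 153681390) and 206 in SNU216 (153681113 to 153681416). The midpoints of this pair lay 364 bp apart. At 153643555 to 153644032 the MKN28 score was 106 and the SNU216 score 219 (153643565 to 153643999), which put the SNU216 peak above 83.4% of its list and the MKN28 peak above 53.1%. At 153538954 to 153539386 the MKN28 peak scored 183, above 72.8% of its list. Its SNU216 partner (153539103 to 153539397) scored 162, above 76.0% of its list. Over the 11 common sites of the region, 3 had a higher score in SNU216, and the median ratio of SNU216 to MKN28 score was 0.778. Over all 6841 pairs 24.7% had a higher score in SNU216, with a median ratio of 0.565. By rank within the lists, 4 of the 11 were higher in SNU216, and the median difference was -3.2 percentage points, against -8.91 over all pairs. Whether the 11 differ from the other pairs was not tested.

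Strong peaks of the S100A part were also found in MKN28 alone. The peak at 153551449 to 153551959 scored 570, above 93.7% of the list, and that at 153498412 to 153499011 scored 416, above 89.8%. A peak at 153669678 to 153670162 scored 322. Of the 10 strongest MKN28 peaks of the S100A part, 3 overlapped an SNU216 peak, and of the 10 strongest of the rest, 2 did. Among all MKN28 peaks at least as strong as the weakest of these, 39.1% and 33.4% overlapped. With 10 peaks in each set, these counts do not show a difference from the list.

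The 4 SNU216 peaks of the S100A part without overlap all scored below 100. They were at 153437864 to 153438258 (score 61.4), 153508614 to 153508976 (62.8), 153536767 to 153537157 (71.7) and 153662503 to 153662777 (75.4). Each ranked below the median of its list, and the one at 153536767 lay 1796 bp from the nearest MKN28 peak.

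The edges of the region were set by position, and peaks stood close to some of them. An MKN28 peak with a score of 494 lay 2.59 kb before the start, and the midpoint of an SNU216 peak with a score of 90.5 lay 0.142 kb past the end. That peak (153699955 to 153700330) begins inside the region and is not a member. The boundary of the S100A part fell in an empty place, 88.7 kb after the last MKN28 peak of the rest and 29.7 kb before the first one of the S100A part.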

How the data were processed

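The deposited data are a MACS peak list for each TEAD4 library, with positions and a score for every peak and no header. According to the list names, the input of each line served as its control. Per the submitters' processing notes, CASAVA 1.8, Bowtie2 2.0.0, MACS and build hg19 were used. Settings, the MACS version, the scale of the score and the handling of reads from near-identical gene copies are not stated there. Such a score rises with depth.

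Starts were made 1-based, and members were taken by midpoint. Overlap meant at least 1 shared bp. Shares carry exact Clopper-Pearson, densities exact Poisson, density ratios exact conditional and medians order-statistic 95% intervals. With 1 library per line no test across samples exists. Bands and chromosome lengths came from circlize 0.4.16 and the hg19 position of S100A9 from the knownGene sample in GenomicFeatures 1.54.1, with R 4.3.3, scipy 1.17.1, pandas 2.3.3, numpy 2.4.6 and Python 3.11.15. The reference tables are GRCh38.p14, so genes and motifs at other peaks were not analysed here. The overlap code was tested on copies of MKN28 peaks, some shifted and the others placed on a chromosome that does not exist. The density ratio interval was tested on simulated counts.

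Named peaks were all SNU216 members, their MKN28 partners and the 10 highest-scoring MKN28 peaks of each part. A few others named were chosen after their values were seen: at the edges, at S100A9 and beside another peak. The members and gene lists were chosen with earlier results of these data known, and the promoter search and the width comparison were added later.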

Additional observations from a re-analysis of the deposited data

Results flagged for a closer look

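The contrast of the S100A part with the rest pointed opposite ways in the lines for 2 measures. The median score of the S100A part was 1.35 times that of the rest in MKN28 and 0.774 times in SNU216. The median width was 1.07 times that of the rest in MKN28 and 0.85 times in SNU216. The difference between the lines was not tested, since each line has 1 library and the SNU216 parts hold 9 and 11 peaks.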

How the results depend on the processing

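Of 93 recomputed values, 76 stayed within the interval of the reported value (for counts, within 1.5 times) and 17 moved. Another 12 combinations of value and setting were left out, since the setting could not touch the value. With only scores of at least 100, MKN28 kept 35 and SNU216 kept 9 members, and the MKN28 median score of the rest was 147.3. Of these SNU216 members 77.8% overlapped, against 68.7% of the whole list so limited. The share was 100% in the S100A part (39.8 to 100%) and 60% in the rest (14.7 to 94.7), from 4 and 5 peaks. With MKN28 limited to as many peaks as SNU216 has, 20 MKN28 members were left and 30.0% of the members of either line overlapped, against 35.2% and 36.1% of the whole lists. In SNU216 the share was 44.4% in the S100A part and 18.2% in the rest. The density ratio was then 5.25 in MKN28, the median scores were 331 (S100A part) and 268 (rest), the median widths 646 and 576.5 bp, and the SNU216 share of members 50%. The lower member counts and the higher median scores follow from leaving out the lowest-scoring peaks. The higher SNU216 share of members follows from shortening the MKN28 list alone. The cause of the other moves was not tested. Where 50% of both peaks had to overlap, the SNU216 shares were 44.4% in the S100A part and 45.5% in the rest, so their order turned. Counting gaps of up to 5 kb, a setting added after seeing the data, gave 33.8% of MKN28 members, against 24.1% of the whole list, and the order of the parts turned in both lines (MKN28 32.0% and 35.0%, SNU216 66.7% and 72.7%). Without the first 200 kb in the rest, the MKN28 density ratio was 3.75. The density ratio was above 1 in the 6 settings that could change it in MKN28 (1.93 to 5.25) and the 5 in SNU216 (2.73 to 3.86). Its interval excluded 1 in 6 of 6 and in 3 of 5. Settings that need an hg19 gene map or genome were left aside. Leaving out a replicate was not possible either. No paired analysis was possible because neither line has a second library. Since depth is unknown, a peak missing from a list cannot be read as a site without TEAD4.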
